A study of Homo sapiens with 4 samples.

Results

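Heme oxygenase 1 (HMOX1) and 9 further genes of heme and iron handling were followed through CPYPP treatment of the cell lines MDA-MB-231 and MDA-MB-435. The genes were chosen by name for their roles, with earlier results of these data known. They are HMOX1, HMOX2, BLVRA, BLVRB, FTH1, FTL, TFRC, SLC40A1, FECH and ABCB6, 10 of the 61806 genes in the count table. MDA-MB-231 (the breast cancer cells) and MDA-MB-435 (the melanoma cells) are human lines, both labelled wild type. Poly(A)-selected RNA of each line was sequenced as a control, for which no agent is named, and after 6 h with 10 µM CPYPP, an inhibitor of DOCK family exchange factors, to see which transcripts the compound altered. There was 1 library per condition and 4 in all, so no spread among cultures of the same line was measured, and the dose comes from a treatment description that is worded for MDA-MB-435 in every sample. HMOX1 rose more than 100-fold in both lines, the ferritin genes FTH1 and FTL rose close to 2-fold, and the other heme oxygenase, HMOX2, gave fold changes below 1.

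Heme oxygenases open the heme ring and release iron, carbon monoxide and biliverdin, and biliverdin reductases turn biliverdin into bilirubin. Iron that is freed in this way can be stored in ferritin, a shell built of heavy (FTH1) and light (FTL) chains, or leave the cell through ferroportin (SLC40A1). Iron enters most cells with transferrin through the transferrin receptor (TFRC), and ferrochelatase (FECH) places iron into the porphyrin ring in the last step of heme synthesis. HMOX1 is the inducible heme oxygenase and is known to be held down by BACH1 and switched on by NRF2 with small MAF partners, while HMOX2 is the constitutive form.

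Several of these mRNAs carry an iron responsive element (IRE), a hairpin with the loop CAGTGN that iron regulatory proteins bind when iron is low. In a 5′ UTR the bound hairpin blocks translation, and in the 3′ UTR of TFRC it protects the mRNA. Because these hairpins tie the storage, export and uptake genes together, they were read from the GENCODE v29 transcripts (GRCh38) with a fixed search, a C, 5 bases, the loop CAGTG with A, C or T as its last base, and 5 bases that pair with the first 5. Windows of 29 bases are given 5′ to 3′ in the sense of the mRNA, with the loop in capitals.
FTH1, 5′ UTR, chr11:61967574-61967602, minus strand: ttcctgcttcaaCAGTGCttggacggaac
FTL, 5′ UTR, chr19:48965335-48965363, plus strand: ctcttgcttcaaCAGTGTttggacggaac
SLC40A1, 5′ UTR, chr2:189580661-189580689, minus strand: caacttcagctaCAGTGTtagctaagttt
TFRC, 3′ UTR, chr3:196050979-196051007, minus strand: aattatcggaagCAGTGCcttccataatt
TFRC, 3′ UTR, chr3:196050575-196050603, minus strand: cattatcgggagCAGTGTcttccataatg
TFRC, 3′ UTR, chr3:196050510-196050538, minus strand: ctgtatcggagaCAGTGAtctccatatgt
TFRC, 3′ UTR, chr3:196050463-196050491, minus strand: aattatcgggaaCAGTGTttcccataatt

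A match of this form was found in the 5′ UTR of 26 (0.132%) and in the 3′ UTR of 104 (0.528%) of 19684 genes searched, and these 4 genes were the members that held it in a UTR. HMOX1, HMOX2, BLVRA, BLVRB, FECH and ABCB6 had no match, which says only that these letters are not in their annotated transcripts. RNA counts do not measure translation, so the step that a 5′ UTR hairpin controls was not measured here.

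Between 17196385 and 22663954 reads per library were counted on genes. The line of each library was read against marker genes. SOX10, S100B and DCT, which mark melanocytes, had 3031, 1055 and 658 counts in the MDA-MB-435 control and 0, 0 and 1 in the MDA-MB-231 control. KRT19, CDH1 and EPCAM, which mark epithelia, had 3953, 837 and 387 counts in the MDA-MB-231 control and 4, 0 and 2 in the MDA-MB-435 control. The whole lists separated the lines less sharply. The 8 melanocyte markers summed to 71.2 counts per 1000000 counted reads (CPM) in the MDA-MB-231 control and 259 CPM in the MDA-MB-435 control, and MITF had 1585 and 1405 counts. PMEL, MLANA, TYR and TYRP1, also melanocyte markers, had 34, 8, 0 and 3 counts in the MDA-MB-231 control. In the MDA-MB-435 control they had 13, 9, 2 and 10 counts, so these low counts did not set the melanoma cells apart. The 6 epithelial markers summed to 1776 and 289 CPM, and KRT18 had 8212 and 5740 counts. None of the 8 erythroid markers reached 10 counts in any library, and they summed to between 0.0419 and 0.715 CPM. The 5 macrophage markers summed to between 1.62 and 4.19 CPM, with MARCO at 0 counts in all 4 libraries, CD163 at 3 counts or fewer and CSF1R the highest at 19 to 51 counts. PTPRC, on the same list, had 36 and 9 counts in MDA-MB-231 and passed there as lower.

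HMOX1 (ENSG00000100292, chr22:35380361-35394214, plus strand) had 158 counts in MDA-MB-231 without CPYPP and 16468 with it. In MDA-MB-435 it had 443 counts in the control and 47504 after CPYPP. Both treated libraries were therefore far above both controls. Counts were scaled by library size with a TMM factor (trimmed mean of M values) within each line, and intervals are 95% exact binomial intervals that cover counting error only. On this scale HMOX1 was 142-fold higher after CPYPP in MDA-MB-231 (122 to 167) and 138-fold higher in the melanoma cells (126 to 152). Among tested genes, those that reached 10 counts in either library of the pair, HMOX1 had the second largest rise in MDA-MB-231 and the largest in the melanoma cells.

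The rise moved HMOX1 far up the list of expressed genes. Ordered by counts, it stood at place 10194 in the MDA-MB-231 control and at place 73 after CPYPP, and at places 7930 and 22 in MDA-MB-435. Its share of all gene counts went from 0.000707% (95% Clopper-Pearson interval 0.000601 to 0.000826) to 0.0958% (0.0943 to 0.0972) in MDA-MB-231. The share in the melanoma cells went from 0.00195% (0.00178 to 0.00215) to 0.244% (0.242 to 0.246). Fitted over both lines, with the line as a block, the log2 fold change was 7.08 (SE 0.147, edgeR quasi-likelihood test, adjusted p = 3.08e-09, 4 libraries and 1 residual degree of freedom). The spread in that fit is the difference between the responses of the lines, moderated toward the trend over all tested genes. The SE here and below was worked back from the log2 fold change and the F statistic of the test. It is not a separate measure of error. The log2 fold changes differed between the lines by −0.04 (MDA-MB-435 minus MDA-MB-231, counting interval −0.30 to 0.22), while the MDA-MB-435 control stood 2.62-fold above the MDA-MB-231 control (2.18 to 3.16). The level per length after CPYPP was accordingly higher in MDA-MB-435, at 1113 FPKM (fragments per kilobase of deposited exon length, on the CPM scale) against 425 FPKM in MDA-MB-231.

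HMOX2 (ENSG00000103415, chr16:4474690-4510347, plus strand), which does the same reaction, had 1160 (control) and 702 (CPYPP) counts in MDA-MB-231 and 917 and 588 in the melanoma cells. Its fold changes were 0.826 (0.751 to 0.908) and 0.827 (0.744 to 0.918), below 1 beyond counting error in both lines and not past the 2-fold threshold in either. The fit over both lines gave a log2 fold change of −0.32 (SE 0.137) that did not pass (edgeR quasi-likelihood test, adjusted p = 0.214). The balance between the heme oxygenases turned over. In FPKM, HMOX1 was at 0.199 of HMOX2 in the MDA-MB-231 control and at 34.4 times HMOX2 after CPYPP. In MDA-MB-435 it was at 0.707 of HMOX2 in the control and at 118 times HMOX2 after CPYPP. HMOX2 overlaps NMRAL1 on the opposite strand over 21074 bases, and the strand setting of the counting is not given in the sources used here, so reads of this pair may be mixed. NMRAL1 gave fold changes of 0.756 in MDA-MB-231 and 0.881 in the melanoma cells.

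**Figure D1:**
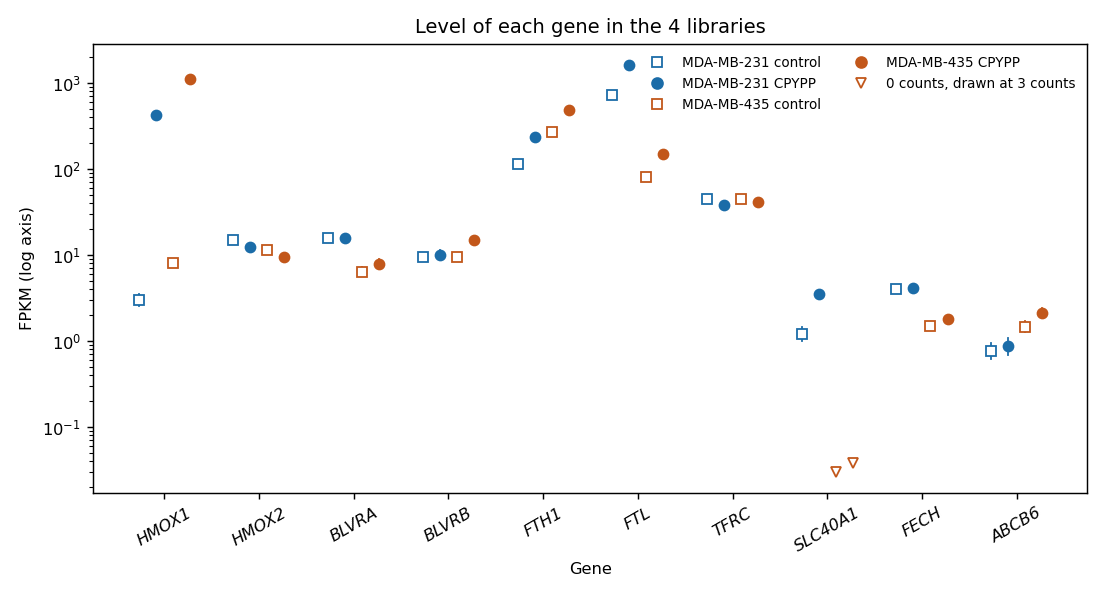
Level of the 10 genes in FPKM on a log axis, for control (open squares) and CPYPP (filled circles) libraries of MDA-MB-231 (blue) and MDA-MB-435 (orange), with 95% Poisson intervals for counting error and triangles for 0 counts, drawn at the level of 3 counts. HMOX1 goes from 2.99 to 425 FPKM in MDA-MB-231 and from 8.05 to 1113 FPKM in MDA-MB-435, while HMOX2 lies between 9.41 and 14.99 FPKM in all 4 libraries.

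The biliverdin reductases, the next step after heme oxygenase, did not pass the thresholds. BLVRA (ENSG00000106605, chr7:43758680-43807342, plus strand), the reductase for the main biliverdin isomer, had 653 and 477 counts in MDA-MB-231 and 277 and 265 in the melanoma cells. In MDA-MB-231 its fold change, 0.997 (0.884 to 1.12), did not differ from 1 beyond counting error, and in the melanoma cells it was 1.23 (1.04 to 1.47). BLVRB (ENSG00000090013, chr19:40447765-40465764, minus strand), which also acts as a flavin reductase, had 346 and 270 counts in MDA-MB-231 and 360 and 441 in the melanoma cells. CPYPP over control gave 1.07 (0.905 to 1.25) in MDA-MB-231 and 1.58 (1.37 to 1.82) in the melanoma cells, and the log2 values differed between the lines by 0.57 (0.26 to 0.87, counting error only). Neither gene passed the threshold in a line or in the fit over both lines (edgeR quasi-likelihood test, adjusted p = 0.804 for BLVRA and 0.349 for BLVRB).

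Both ferritin chains rose in the fit over both lines. FTH1 (ENSG00000167996, chr11:61959718-61967634, minus strand) had 5274 and 7805 counts in MDA-MB-231 and 12927 and 18093 in the melanoma cells. CPYPP over control gave 2.02 (1.95 to 2.09) in MDA-MB-231, at the edge of the 2-fold threshold, and 1.80 (1.76 to 1.85) in the melanoma cells, under it. Scaling by total counts put the MDA-MB-231 value at 1.92 and upper-quartile scaling put it at 1.95, so that this call rests on the scaling. Over both lines the log2 fold change was 0.89 (SE 0.115, edgeR quasi-likelihood test, adjusted p = 0.00166).

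FTL (ENSG00000087086, chr19:48965309-48966879, plus strand) had 14290 and 23598 counts in MDA-MB-231 and 1680 and 2370 in the melanoma cells. CPYPP over control gave 2.25 (2.21 to 2.30) in MDA-MB-231 and 1.82 (1.71 to 1.94) in the melanoma cells. Over both lines the log2 fold change was 0.98 (SE 0.125, edgeR quasi-likelihood test, adjusted p = 0.00159). The lines differed far more in their ferritin make-up than CPYPP changed it. Heavy over light chain, in FPKM, was 0.160 in the MDA-MB-231 control and 0.144 after CPYPP, against 3.34 and 3.32 in MDA-MB-435. Each chain thus kept its line's order after CPYPP, with light chain mRNA above heavy chain mRNA in MDA-MB-231 and below it in the melanoma cells.

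Ferritin genes have many processed copies in the genome, and reads could be split among them. The 25 FTH1 copies in the table held counts equal to between 0.597% and 1.06% of the FTH1 counts in a library, and the 16 FTL copies between 0.07% and 0.298% of the FTL counts. Reads left uncounted because they fit several places would not show in these shares. FTH1 also overlaps BEST1 on the opposite strand, which had between 7 and 57 counts per library.

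TFRC (ENSG00000072274, chr3:196012511-196082153, minus strand), the receptor for iron uptake, had the most counts of the members in the control libraries of both lines. It had 17941 counts without and 11144 with CPYPP in MDA-MB-231 and 18529 and 13182 in the melanoma cells. Its fold changes were 0.848 (0.828 to 0.868) and 0.917 (0.897 to 0.938), below 1 beyond counting error in each line and well inside the 2-fold limits. The fit over both lines gave −0.22 (log2, SE 0.109), which did not pass (edgeR quasi-likelihood test, adjusted p = 0.277).

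SLC40A1 (ENSG00000138449, chr2:189560590-189583758, minus strand), the iron exporter ferroportin, was seen in MDA-MB-231 alone. It had 117 counts in the MDA-MB-231 control and 246 after CPYPP, which made 2.87-fold (2.29 to 3.61). In MDA-MB-435 it had 0 counts in both libraries, where the floor of 3 counts stands for 0.126 CPM in the control and 0.162 CPM after CPYPP, so no fold change is given there. Over both lines the log2 fold change was 1.501 (SE 0.427, edgeR quasi-likelihood test, adjusted p = 0.0680), a value that comes from the MDA-MB-231 pair only.

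FECH (ENSG00000066926, chr18:57544377-57586732, minus strand), the last enzyme of heme synthesis, had 1016 and 777 counts in MDA-MB-231 and 391 and 368 in the melanoma cells. The fold changes were 1.04 (0.9495 to 1.15) and 1.21 (1.05 to 1.40). ABCB6 (ENSG00000115657, chr2:219209772-219218994, minus strand), a transporter linked to porphyrin traffic, was the least abundant member with counts in both lines, at 91 and 76 counts in MDA-MB-231 and 181 and 203 in the melanoma cells. Its fold changes were 1.14 (0.829 to 1.56) and 1.45 (1.18 to 1.78). Neither gene passed the threshold in a line or over both lines (edgeR quasi-likelihood test, adjusted p = 0.701 for FECH and 0.526 for ABCB6). The whole of ABCB6 lies within a gene on the same strand, ENSG00000284820, which had 3 and 6 counts in MDA-MB-231 and 22 and 41 in the melanoma cells and was 2.40-fold higher after CPYPP in the melanoma cells. Reads that fit both of these genes cannot be told apart. If such reads were left uncounted, the ABCB6 counts and levels given here are too low.

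**Figure D2:**
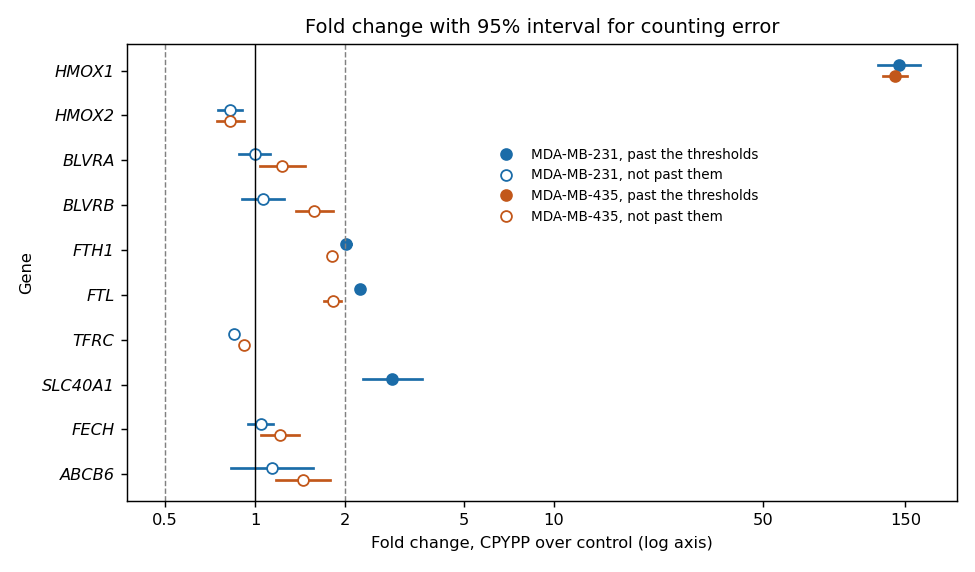
Fold change of CPYPP over control on a log axis for the 10 genes in MDA-MB-231 (blue) and MDA-MB-435 (orange), with bars for the 95% interval of counting error, filled points past the thresholds and dashed lines at 0.5 and 2. HMOX1 lies at 142 and 138, FTH1 and FTL between 1.80 and 2.25, and SLC40A1 has a point in MDA-MB-231 only.

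Counted together, 4 of the 10 genes passed the thresholds as higher in MDA-MB-231 (fold change over 2 and adjusted p under 0.05 in edgeR's binomial test), namely HMOX1, FTH1, FTL and SLC40A1, where 4.22% of all tested genes did. In MDA-MB-435 it was HMOX1, 1 of the 9 tested, against 3.17% of all tested genes. No member passed as lower, against 3.09% of tested genes in MDA-MB-231 and 6.52% in the melanoma cells. This test compares the reads of the libraries, not the conditions. The members were chosen with earlier results of these data known, so the shares describe them and do not test them as a set. When a biological coefficient of variation of 0.2 was assumed, HMOX1 was the member that still passed in either line, and FTH1, FTL and SLC40A1 in MDA-MB-231 did not (edgeR exact test, adjusted p = 0.362, 0.198 and 0.0644). In the fit over both lines 3 of 10 members passed as higher and 0 as lower, where 4.39% and 2.85% of tested genes passed. The median log2 fold change of the tested members was 0.14 in MDA-MB-231 and 0.53 in the melanoma cells, beside −0.01 and −0.02 over all tested genes.

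**Figure D3:**
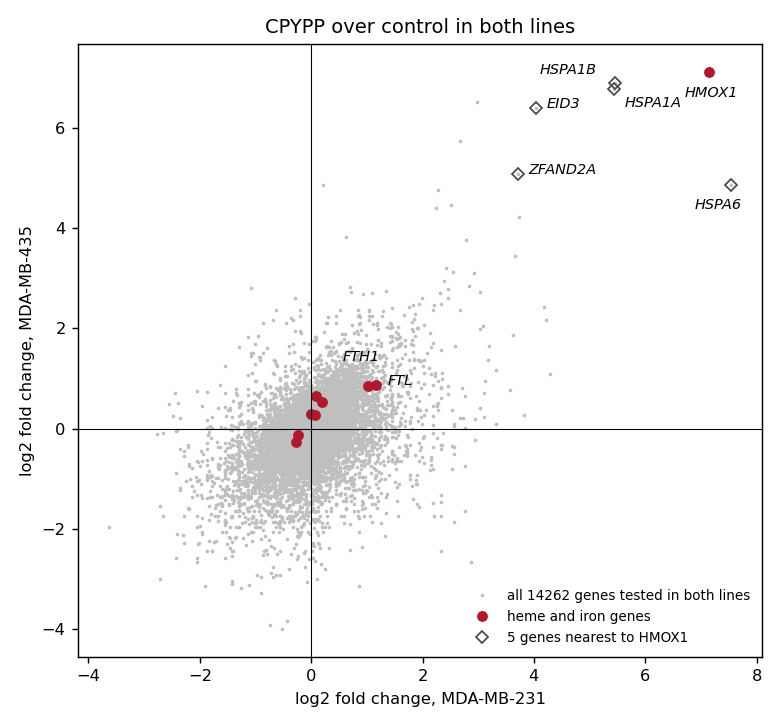
Log2 fold change after CPYPP in MDA-MB-231 (x axis) and MDA-MB-435 (y axis) for the 14262 genes tested in both lines (grey), the 9 heme and iron genes among them (red) and the 5 genes nearest to HMOX1 (diamonds). HMOX1 stands at the top right with heat shock genes, FTH1 and FTL lie between log2 0.85 and 1.17 in both lines, and the other 6 members between −0.28 and 0.66.

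The control libraries showed how the lines differed in these genes without the compound, and they are the same libraries to which the CPYPP samples were compared. Relative to MDA-MB-231, 2 members were higher in MDA-MB-435 (HMOX1 and FTH1) and 4 lower, where 22.2% and 20.9% of all tested genes were. FTH1 was 2.29-fold higher (2.21 to 2.36). FTL stood at 0.110 of its MDA-MB-231 level (0.104 to 0.115), BLVRA at 0.396 (0.343 to 0.456) and FECH at 0.359 (0.319 to 0.404). SLC40A1 was 41.8-fold lower with the 0 counts of the MDA-MB-435 control set to 3, and its counting interval reached up to 0.0299 of the MDA-MB-231 level. HMOX2 (0.738, 0.676 to 0.805), BLVRB (0.971, 0.835 to 1.13) and ABCB6 (1.86, 1.43 to 2.41) did not pass. TFRC was at 0.964 (0.944 to 0.984), which turned to 1.02 with total counts, so it has no direction.

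Ordered by FPKM, FTL, FTH1 and TFRC led the MDA-MB-231 control at 716, 115 and 45.1, and FTH1, FTL and TFRC led the MDA-MB-435 control at 270, 80.8 and 44.7. HMOX1 was eighth of the 10 genes in the MDA-MB-231 control and sixth in the MDA-MB-435 control. After CPYPP it was second in MDA-MB-231, behind FTL at 1614 FPKM, and first in the melanoma cells, ahead of FTH1 at 488 FPKM. Neighbours low in this order were close, with SLC40A1 at 1.21 FPKM (1.00 to 1.45) and ABCB6 at 0.763 FPKM (0.614 to 0.937) in the MDA-MB-231 control. A gene with a long deposited exon length, such as TFRC at 17376 bases against 871 for FTL, has a low FPKM for its counts.

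The pathway around these genes was described with 9 lists that hold 86 further genes. Of these, 77 were tested in MDA-MB-231, where 5 passed as higher and 1 as lower, and 72 in the melanoma cells, where 3 passed as higher and 0 as lower. Their median log2 fold change was −0.04 in MDA-MB-231 and 0.11 in the melanoma cells. In the fit over both lines 8 of 77 rose and 2 fell. These counts were read beside the shares of all tested genes given above.

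The list of transcription factors known to act on HMOX1, which also holds the NRF2 inhibitor KEAP1, had most of the changes. In the fit over both lines 6 of its 10 genes were higher and 0 lower, where 4.39% and 2.85% of all tested genes passed. MAFG, a small MAF protein, had 1601 and 2955 counts in MDA-MB-231 and 1657 and 3090 in the melanoma cells. It was 2.52-fold and 2.40-fold higher, with a log2 fold change over both lines of 1.26 (edgeR quasi-likelihood test, adjusted p = 1.51e-04). BACH1, the heme-binding repressor of HMOX1, had 1620 and 2412 counts in MDA-MB-231 and 1854 and 4201 in the melanoma cells. It was 2.03-fold and 2.92-fold higher, with 1.24 over both lines (edgeR quasi-likelihood test, adjusted p = 5.33e-04). Like FTH1, BACH1 sat at the threshold in MDA-MB-231 and came to 1.94 with total counts.

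ATF4, the factor of the integrated stress response, had 3441 and 3810 counts in MDA-MB-231 and 6689 and 14544 in the melanoma cells, which made 1.51-fold in the former and 2.80-fold in the latter. NFE2L2, which encodes NRF2, gave 1.30 and 1.95, and passed in the fit over both lines (log2 0.63, edgeR quasi-likelihood test, adjusted p = 0.0203). MAFF (0.67) and JUN (0.53) passed there as well. BACH2, a relative of BACH1, had 53 and 110 counts in MDA-MB-231, 2.83-fold higher, and 0 and 1 in the melanoma cells. KEAP1, MAFK and HSF1 did not pass in either line or over both, with log2 values over both lines of 0.37, 0.22 and −0.24.

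In heme synthesis 0 of 8 tested genes passed as higher and 1 as lower in MDA-MB-231. That gene was CPOX, coproporphyrinogen oxidase, with 3645 and 1158 counts in MDA-MB-231 (fold change 0.434). In MDA-MB-435 CPOX had 2751 and 1995 counts (fold change 0.935), and 0 of 8 genes of the list passed. ALAS1, the first enzyme of the pathway and one that heme is known to repress, gave 1.26 and 1.48 and did not pass over both lines (log2 0.41, edgeR quasi-likelihood test, adjusted p = 0.0613). In heme transport and binding 0 of 14 tested genes passed in MDA-MB-231 and 0 of 15 in the melanoma cells.

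Iron uptake and intracellular transport had 0 of 17 tested genes that passed in MDA-MB-231 and 0 of 14 that passed in the melanoma cells. SLC25A37, the mitochondrial iron carrier mitoferrin, was at 0.784 and 0.691 and fell in the fit over both lines (log2 −0.48, edgeR quasi-likelihood test, adjusted p = 0.0313). Beside the ferritin chains, NCOA4, which delivers ferritin for breakdown, gave 0.997 and 1.20 and did not pass. Among iron sensing genes the iron regulatory proteins ACO1 (1.02 and 1.08) and IREB2 (1.05 and 1.09) did not pass. FBXL5, which marks IREB2 for breakdown, was at 0.801 and 0.591 and fell over both lines (log2 −0.58, edgeR quasi-likelihood test, adjusted p = 0.0359, or 0.0867 with DESeq2).

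ZFP36, an mRNA decay factor on the same list, had 129 and 213 counts in MDA-MB-231 and 240 and 345 in the melanoma cells, fold changes of 2.25 and 1.85. It passed in MDA-MB-231 and over both lines (log2 0.98, edgeR quasi-likelihood test, adjusted p = 0.0188, or 0.0826 with DESeq2). Among export and systemic control genes BMP6, a ligand that acts on hepcidin, had 18 and 31 counts in MDA-MB-231, 2.35-fold higher, and 0 and 2 in the melanoma cells. HAMP, which encodes hepcidin, had 2 counts or fewer in every library. Of 20 iron-sulfur cluster genes, 0 passed in either line and ISCA1 rose over both (log2 0.54, edgeR quasi-likelihood test, adjusted p = 0.0230).

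**Figure D4:**
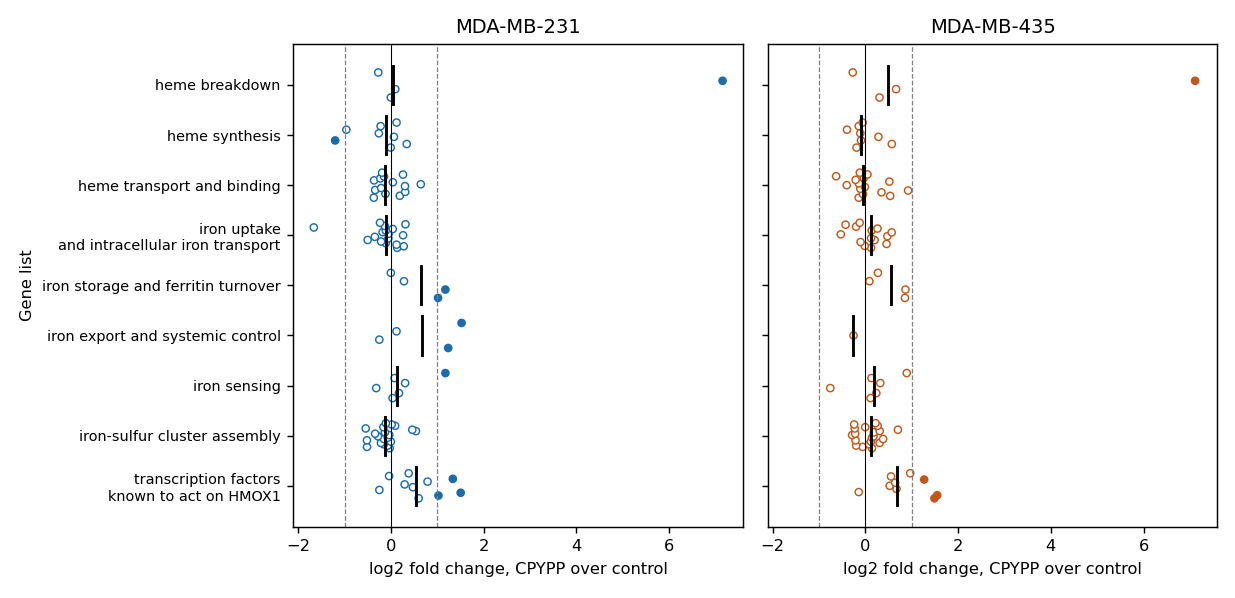
Log2 fold change after CPYPP of the tested genes of 9 heme and iron lists, members included, in MDA-MB-231 (left) and MDA-MB-435 (right), with filled points past the thresholds, a black bar at each list's median and dashed lines at −1 and 1. HMOX1 lies alone beyond 7, and the list of transcription factors with KEAP1 has medians of 0.53 and 0.67 while heme synthesis has medians of −0.12 and −0.10.

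The genes whose changes in the 2 lines were closest to those of HMOX1, by the distance between the pairs of log2 fold changes among 14262 genes tested in both lines, were HSPA1B, HSPA1A, HSPA6, EID3 and ZFAND2A, at distances of 1.70, 1.75, 2.30, 3.19 and 4.002. HSPA1B and HSPA1A encode inducible HSP70 and are near-identical copies, so their reads may be split between them. HSPA1B had 1181 and 38209 counts in MDA-MB-231 and 294 and 26838 in the melanoma cells, and HSPA1A had 522 and 16564 and then 593 and 50494. HSPA6, a further HSP70, had 12 and 1639 counts in MDA-MB-231 and 1 and 67 in the melanoma cells. EID3 had 16 and 193 counts in MDA-MB-231 and 10 and 654 in the melanoma cells, and ZFAND2A had 296 and 2840 and then 163 and 4242. Of the 5 genes, HSPA6 was the closest to HMOX1 in the breast cancer cells, where it was 186-fold higher, and HSPA1B was the closest in the melanoma cells, where it was 118-fold higher. The distance of HSPA6 was taken with its single control count in the melanoma cells set to 3. In all, 8 genes including HMOX1 were over 8-fold higher in both lines.

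The nearest tested genes on each side of HMOX1 on chromosome 22 did not pass the thresholds. TOM1, which ends 32369 bases before HMOX1, had 359 and 226 counts in MDA-MB-231 and 472 and 479 in the melanoma cells, fold changes of 0.859 (0.724 to 1.02) and 1.31 (1.15 to 1.49). MCM5, which begins 5920 bases after the end of HMOX1 on the same strand, had 1839 and 1148 counts in MDA-MB-231 and 3109 and 2346 in the melanoma cells. Its fold changes were 0.852 (0.791 to 0.918) and 0.973 (0.922 to 1.03). Of the tested genes within 250 kb of HMOX1, the highest fold change was 1.41 (1.31 to 1.52), for HMGXB4 in the melanoma cells, and none passed the thresholds.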

How the data were processed

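Raw read counts per gene were deposited by the authors for 4 libraries, with gene positions and exon lengths, and no normalization. The submitters' processing notes name cutadapt 1.9.1, HISAT2 2.2.1, HTSeq 0.6.1, DESeq2 and GRCh37.p13, but the deposited positions are those of GRCh38, since 58241 of 58254 identifiers shared with GENCODE v29 overlap there. The strand setting is not given in the sources used here. Lines were taken from the sample titles.

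Counts were analysed with edgeR 4.0.16 in R 4.3.3. Within each pair of libraries, genes that reached 10 counts in either library were scaled with TMM and tested with edgeR's binomial test, with a fold change over 2 and a Benjamini-Hochberg adjusted p under 0.05 as thresholds. Counts of 3 or fewer were set to 3, so such a fold is set by that floor and is not a confidence limit. The fit over both lines used the quasi-likelihood test after filterByExpr, with adjusted p under 0.05 and no limit on fold, and gave a biological coefficient of variation of 0.121. Its variances were moderated over all tested genes, and its SE is the absolute log2 fold change over the square root of F. CPM and FPKM were computed from the counts and the deposited exon lengths. Scripts were tested on simulated data. DESeq2 1.42.0 was an alternative.

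The members and lists were chosen with earlier results of these data known. Named genes were the members, at most 15 other listed genes called in a line, the 5 genes nearest to HMOX1, genes overlapping a member and the nearest tested gene on each side of HMOX1. Further listed genes and markers were named after their values were seen. TMM over all genes was an alternative added after seeing the data.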

Additional observations from a re-analysis of the deposited data

Results flagged for a closer look

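With TMM scaling, 5 of 80 heme and iron genes tested in both lines had fold changes on opposite sides of 1, each beyond counting error. None of the 9 members tested in both lines was among them, and none of the 5 passed the 2-fold threshold in either line. LRP1, the receptor that takes up the heme-hemopexin complex, had a fold change of 1.56 in MDA-MB-231 and 0.905 in the melanoma cells, a difference of −0.79 in log2 (MDA-MB-435 minus MDA-MB-231). The other 4 were below 1 in MDA-MB-231 and above it in the melanoma cells. PCBP2, an iron chaperone, differed by 0.41 (0.862 and 1.15). FDX1, a ferredoxin, differed by 0.53 (0.899 and 1.30). CISD1, an iron-sulfur protein of the outer mitochondrial membrane, differed by 0.52 (0.860 and 1.23). CIAPIN1, of the cytosolic iron-sulfur assembly machinery, differed by 0.23 (0.897 and 1.06), but with total counts it was at 0.952 in MDA-MB-435 and with upper-quartile scaling at 0.977, so its direction there rests on the scaling. Total counts put PCBP2 in MDA-MB-435 at 1.03 (0.990 to 1.08), no longer beyond counting error. LRP1, FDX1 and CISD1 stayed opposite beyond counting error under all 5 scalings compared, CIAPIN1 was lost in 3 of them and PCBP2 in 1, while LRP10 and NCOA4 joined with total counts and upper-quartile scaling. These scalings of the comparison between lines were chosen after seeing the data. With 1 library per condition the difference was not tested for any of the 5 genes.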

How the results depend on the processing

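No called result reversed its direction under the alternatives run. HMOX1 stayed higher after CPYPP in all of them, at 136-fold to 143-fold in MDA-MB-231 and 125-fold (total counts) to 140-fold in the melanoma cells. FTH1 in MDA-MB-231 lay between 1.92 and 2.03 and lost its call in 5 of 10 alternatives. Under a biological coefficient of variation assumed at 0.2, 1 member stayed higher in MDA-MB-231, as with 0.4, and all genes called higher and lower went to 113 and 43 (4 and 0 with 0.4) in MDA-MB-231 and to 124 and 147 (13 and 1) in the melanoma cells. With 0.4 the control libraries differed in 1462 and 1588 genes, with 0 members higher and 2 lower, and the 2.62-fold difference in HMOX1 lost its call. Requiring 10 counts in both libraries left 457 and 271 genes in MDA-MB-231, 602 lower in the melanoma cells, and 2202 and 2046 between the controls. A fold change over 1.5 gave 1406 and 1095 genes in MDA-MB-231, 1372 and 1883 in the melanoma cells, and 4 members there. Total counts moved the median log2 fold change of all tested genes by −0.15 in MDA-MB-435, where 370 higher and 1487 lower genes replaced 524 and 1078, and upper-quartile scaling moved it by −0.11 (403 and 1365). For the effect over both lines, genes called lower came to 1111 with total counts, 850 without a filter and 280 with DESeq2, against 478. SLC40A1 passed there with total counts, DESeq2 size factors and no filter (adjusted p = 0.0357, 0.0389 and 0.00472), and so did CPOX as lower (adjusted p = 0.00121, 0.0292 and 3.40e-05). Of the other listed genes called in a line, BACH1 and ATF4 in the melanoma cells kept their calls at an assumed coefficient of 0.2. Both lost them at 0.4. BACH2, MAFG, BACH1, BMP6, ZFP36 and CPOX in MDA-MB-231 and MAFG in the melanoma cells lost theirs at 0.2 already. Without the block for the line 0 members and 0 genes passed either way (167 genes at an unadjusted p under 0.05), and HMOX1, at 7.06, lost its call. The cause of these shifts was not tested. Control and CPYPP were paired within a line by the block for the line. With 1 library per condition there were no replicates to pair, and leaving out a library would leave that fit with no residual degrees of freedom. Genes near 10 counts have intervals that span several-fold.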
